A study of Mus musculus with 6 samples.

Results

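The genes described are 34 genes of the unfolded protein response and the integrated stress response, chosen by symbol from a list of endoplasmic reticulum (ER) chaperones, stress sensors, ER-associated degradation factors and genes of the ATF4 pathway. All 34 were found among the 28450 genes of the table. They were compared between the livers of 3 male Acsm3 knockout mice and 3 male control mice (genotype WT), all aged 12 weeks and kept on a normal diet, with 1 poly(A)-selected RNA library for each animal. The disrupted gene, Acsm3, codes for a medium-chain acyl-CoA synthetase of mitochondria. The sources used here do not give the strain, the part of Acsm3 that was disrupted, or whether it was disrupted in liver alone. Levels are in FPKM (fragment counts corrected for transcript length and sequencing depth), a unit per length that lets genes be set side by side.

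The ER folds most proteins that a hepatocyte secretes. When unfolded proteins gather there, IRE1 (gene Ern1), ATF6 and PERK (gene Eif2ak3) signal to the nucleus and raise chaperones, disulfide-forming enzymes and the machinery that extracts misfolded proteins for degradation. PERK also phosphorylates the initiation factor eIF2, as other kinases do under amino acid shortage, haem shortage or viral infection. This integrated stress response slows general translation while favouring that of ATF4, which then induces genes such as Ddit3, Trib3, Asns and, in liver, the hormone Fgf21.

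ER stress elements in the promoters of the members are shown because ATF6 is known to bind this element together with NF-Y. RefSeq promoter windows (GRCm38.p6, 250 bases before to 50 bases after the start) were found for 31 members, and Hyou1, Manf and Atf6 had none. The ER stress element ERSE (CCAAT and CCACG separated by 9 bases of any kind, both strands, exact match) stood in the windows of 9 of these 31 members, against 0.119% of all 32851 windows. Here and below, members are counted by gene, with a match in any window of the gene. The shares are by window, and all windows include those of the members. The members were chosen as known genes of this response, so their share against all windows is a description and not a test. Each stretch below is written 5′ to 3′ in the orientation of the motif, with the fixed letters of the motif in capitals and 5 bases on either side.
Hspa5, chr2:34772020-34772048, plus strand: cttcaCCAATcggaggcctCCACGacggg
Creld2, chr15:88819515-88819543, minus strand: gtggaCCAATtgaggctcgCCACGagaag
Syvn1, chr19:6046527-6046555, plus strand: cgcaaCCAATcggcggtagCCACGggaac
Calr, chr8:84847070-84847098, plus strand: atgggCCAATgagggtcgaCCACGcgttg
Canx, chr11:50325795-50325823, minus strand: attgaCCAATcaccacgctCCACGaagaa
Dnajc3, chr14:118937822-118937850, plus strand: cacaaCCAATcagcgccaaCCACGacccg
Pdia6, chr12:17266486-17266514, plus strand: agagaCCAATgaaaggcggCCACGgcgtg
Derl3, chr10:75893237-75893265, minus strand: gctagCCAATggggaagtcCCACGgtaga
Hsp90b1, distal, chr10:86705633-86705661, minus strand: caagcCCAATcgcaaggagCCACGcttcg
Hsp90b1, proximal, chr10:86705528-86705556, plus strand: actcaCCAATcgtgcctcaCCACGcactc

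The related element ERSE-II (ATTGG and CCACG separated by 1 base, both strands) stood in the windows of 2 of the 31 members, Herpud1 and Dnajb11, against 0.0365% of all windows. The C/EBP-ATF response element CARE, the composite site that ATF4 is known to use (TGATGNAAT, both strands), stood in the windows of 1 member, Fgf21, against 0.965% of all windows. An exact unfolded protein response element UPRE (TGACGTGG, both strands) was found in 0 of the 31 members and in 0.676% of all windows. A match is a description of these letters and not evidence of binding.
Herpud1, chr8:94386372-94386392, plus strand: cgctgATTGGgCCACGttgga
Dnajb11, chr16:22857847-22857867, plus strand: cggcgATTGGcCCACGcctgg
Fgf21, chr7:45615617-45615635, plus strand: acggaTGATGcAATggggg

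Acsm3 was at 0.668, 2.92 and 1.08 FPKM in knockouts 1, 2 and 3, against 33.2, 34.4 and 32.2 FPKM in controls 1, 2 and 3, as the labels say. The steps between low FPKM values implied 15300000 to 16100000 fragments in the knockout libraries and 15700000 to 16300000 in the control libraries. Of the 10996 genes whose mean reached 1 FPKM, 13.9% were called higher and 2.61% lower in the knockouts (limma, adjusted p under 0.05), and the log2 fold changes of the tested genes had a median of 0.13. Fold changes below are knockout minus control on log2(FPKM + 1) with the SE moderated by limma, a scale that understates changes of genes with low FPKM. Scaling bears on every call here, since median-ratio scaling moved the median of all genes to 0 and the share called higher to 7.64%. On the first principal component of the tested genes (56.1% of the variance) the knockouts scored -24.6, -27.7 and -10.1 and the controls 17.3, 19.3 and 25.9, with knockout 3 nearest to the controls. In whole liver, fewer cells of a type and less RNA per cell cannot be told apart, and marker levels of other cell types, which differed between the groups, are given at the end.

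Of the 34 members, 33 reached the filter and 10 of them rose (30.3%, against 13.9% of all tested genes), with 0 lower, and 18 had an unadjusted p under 0.05, all with the higher level in the knockouts (54.5%, against 28.8% of all tested genes in that direction and 35.3% in either). They were the chaperones and folding factors Hspa5, Hyou1, Manf, Creld2 and Pdia4, the sensors Ern1, Atf6 and Eif2ak3, the ubiquitin ligase Syvn1 and the transcription factor Ddit3. The median log2 fold change of the 33 was 0.37, against 0.13 for all tested genes, and 32 of them had a value above 0 (71.2% of all tested genes did). The knockout values lay wholly above the control values in 21 of the 33, against 33.9% of all tested genes, and wholly below in 0, against 7.91%. Here and below, overlap between groups was judged on FPKM as deposited and was not judged again after scaling. After median-ratio scaling, 3 members were called, namely Hyou1, Manf and Eif2ak3 (9.09%, against 7.64% of all genes), and the median was 0.20 against 0.00. Quantile normalization left 5, namely Hspa5, Hyou1, Manf, Pdia4 and Eif2ak3 (15.2%, against 6.84%), and rescaling to a common sum gave 18 (54.5%, against 22.3%). Without knockouts 1, 2 or 3, the calls numbered 6, 3 and 8, and without controls 1, 2 or 3 they numbered 2, 3 and 1. Of all 10996 tested genes, the same fits called 428, 258 and 1987 higher without knockouts 1, 2 or 3. Without controls 1, 2 or 3 they called 539, 266 and 223 of all tested genes higher.

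**Figure D1:**
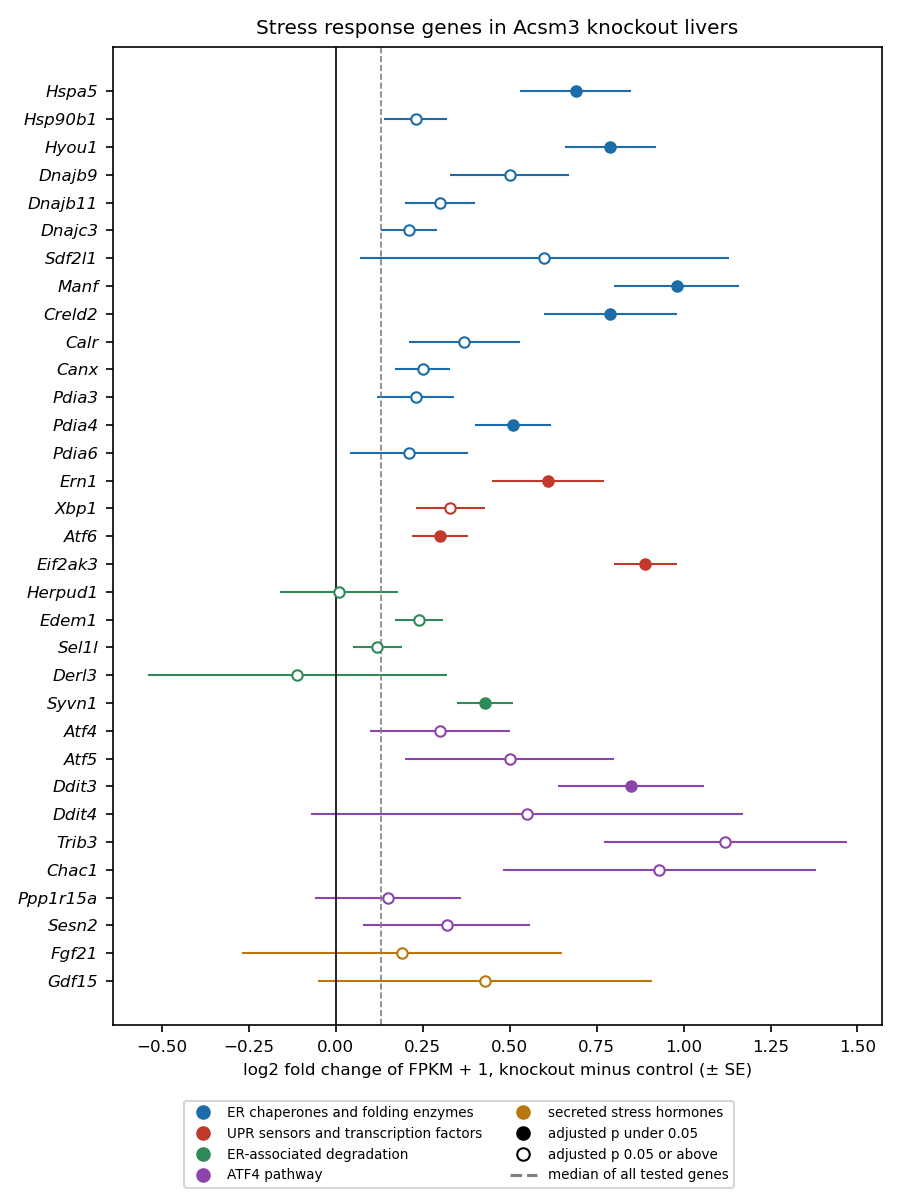
Log2 fold change of FPKM + 1 (knockout minus control, ± SE from limma, 3 mice in each group) for the 33 tested genes, coloured by role. Filled points mark the 10 genes with an adjusted p under 0.05, all to the right of 0, and the dashed line marks the median of all tested genes at 0.13.

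Among the sensors that start the response, Eif2ak3, which encodes the eIF2 kinase PERK, had the smallest adjusted p. Its level was 4.04, 4.98 and 4.30 FPKM in knockouts 1, 2 and 3, against 1.97, 1.94 and 1.87 FPKM in controls 1, 2 and 3. The groups did not overlap, and the controls lay within a narrow range. The means, 4.44 ± 0.486 FPKM in knockouts and 1.93 ± 0.0513 FPKM in controls (SD, n = 3 each), differed 2.30-fold, with 0.89 ± 0.09 on the log2 scale (limma, adjusted p = 0.00566). Eif2ak3 was called under all 17 alternatives in which it was tested, without each mouse and under each scaling included (log2 fold change 0.45 to 1.20, adjusted p 0.0022 to 0.032). Gm43292, annotated on the opposite strand, shares 485 bp with its exons (8.0%), and the sources used here do not say whether strand was kept.

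Ern1 encodes IRE1, the kinase and RNase that splices Xbp1 mRNA. It was at 10.9, 6.95 and 9.47 FPKM in the knockouts, against 5.65, 6.04 and 5.0 FPKM in the controls, with knockout 2 nearest to the controls (log2 fold change 0.61 ± 0.16, limma, adjusted p = 0.043). Atf6, the membrane-bound transcription factor that is cleaved in the Golgi, was at 16.2, 16.4 and 16.3 FPKM in the knockouts, against 12.1, 12.9 and 14.2 FPKM in the controls (0.30 ± 0.08, limma, adjusted p = 0.0426). The groups of both genes were apart, but neither call was firm. Ern1 lost its call without any single mouse other than knockout 2 (adjusted p 0.0788 to 0.126), and Atf6 without any of the 6 (0.0672 to 0.126). Both also lost it after median-ratio scaling (adjusted p = 0.0815 for Ern1 and 0.362 for Atf6), where the log2 fold change of Atf6 was 0.14. Xbp1 was at 45.7, 40.7 and 48.6 FPKM in the knockouts, against 38.7, 36 and 32.4 FPKM in the controls, and did not pass (0.33 ± 0.10, limma, adjusted p = 0.0661). Gene-level FPKM does not separate spliced from unspliced Xbp1 mRNA.

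Of the 14 ER chaperones and folding enzymes, 5 rose (35.7%, against 13.9% of all tested genes) and 9 did not pass. The Hsp70 chaperone BiP, encoded by Hspa5, was at 134, 154 and 196 FPKM in knockouts 1, 2 and 3, against 89.7, 113 and 93.9 FPKM in controls 1, 2 and 3 (log2 fold change 0.69 ± 0.16, limma, adjusted p = 0.034). Hyou1, the nucleotide exchange factor that recharges BiP, was at 13.8, 15.4 and 18.7 FPKM in the knockouts, against 8.02, 10.1 and 8.13 FPKM in the controls (0.79 ± 0.13, adjusted p = 0.0172). Both genes were lowest in knockout 1 and highest in knockout 3 among the knockouts, with no overlap with the controls.

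Manf, a secreted ER protein that binds BiP, had the largest log2 fold change of the chaperone group, 0.98 ± 0.18 (limma, adjusted p = 0.02). It was at 9.76, 11.4 and 11.9 FPKM in the knockouts, against 5.07, 6.74 and 3.79 FPKM in the controls. Creld2, a thioredoxin-like factor secreted under ER stress, was at 12.0, 14.1 and 20.9 FPKM in the knockouts, against 8.87, 8.92 and 7.41 FPKM in the controls (0.79 ± 0.19, adjusted p = 0.0375). Pdia4, a protein disulfide isomerase, was at 77.1, 71.3 and 88.3 FPKM in the knockouts, against 55.2, 61.5 and 49.2 FPKM in the controls (0.51 ± 0.11, adjusted p = 0.0331). In these 3 genes too the groups were apart and knockout 3 was the highest. Hspa5 and Creld2 lost their calls without knockout 2 or any 1 control (adjusted p 0.0641 to 0.114), Hyou1 and Manf without knockout 2, control 1 or control 3 (0.0513 to 0.0727), and Pdia4 without any of the 6 mice (0.0525 to 0.0945). After median-ratio scaling Hyou1 (adjusted p = 0.0422) and Manf (0.03) passed, and Hspa5 (0.113), Creld2 (0.0905) and Pdia4 (0.127) did not. Manf shares 146 bp of exon with Dcaf1 on the opposite strand.

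The other 9 chaperone genes had log2 fold changes of 0.21 to 0.60 that did not pass. In 7 of them, Hsp90b1, Dnajb9, Dnajb11, Dnajc3, Calr, Canx and Pdia3, the knockout values nevertheless lay above the control values. With the called genes, 12 of the 14 were apart in this way, against 33.9% of all tested genes. These gaps are on FPKM as deposited and were not judged again after scaling. After median-ratio scaling the log2 fold changes of the 7 genes were 0.05 to 0.34. The BiP co-chaperone Dnajb9 was at 28.7, 39.9 and 46.4 FPKM in the knockouts, against 26.3, 28.4 and 24.4 FPKM in the controls (0.50 ± 0.17, limma, adjusted p = 0.088), and passed without knockout 1 (0.69, adjusted p = 0.0358). The ER form of Hsp90, Hsp90b1, was at 152, 142 and 169 FPKM in the knockouts, against 127, 139.7 and 128 FPKM in the controls (0.23 ± 0.09, adjusted p = 0.122), and a pseudogene on the opposite strand shares 10.3% of its exon bases. Calreticulin, the lectin chaperone encoded by Calr, was at 204, 191 and 196 FPKM in the knockouts, against 162, 186 and 118 FPKM in the controls (0.37 ± 0.16, adjusted p = 0.159). These 2 abundant chaperones were apart between groups, with control 2 closest to the knockouts, and without control 3 the log2 fold change of Calr was 0.18.

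The membrane-bound relative of calreticulin, calnexin (Canx), was at 85.2, 94.5 and 92.8 FPKM in the knockouts, against 77.1, 80.5 and 70.7 FPKM in the controls (0.25 ± 0.08, limma, adjusted p = 0.0755). Pdia3, the disulfide isomerase that works with both lectins, was at 124, 117 and 125 FPKM in the knockouts, against 112, 113 and 89.2 FPKM in the controls (0.23 ± 0.11, adjusted p = 0.179). Both genes showed a small gap between the groups, and without control 3 the log2 fold change of Pdia3 was 0.12. Dnajb11, a BiP co-chaperone, was at 22, 21 and 22.4 FPKM in the knockouts, against 19.6, 17.6 and 15.5 FPKM in the controls (0.30 ± 0.10, adjusted p = 0.0727). Dnajc3, the co-chaperone p58IPK that also inhibits PERK, was at 60.5, 61.8 and 66.8 FPKM in the knockouts, against 59.5, 52.3 and 51.8 FPKM in the controls (0.21 ± 0.08, adjusted p = 0.13). For Dnajc3, control 1 was nearly level with knockout 1.

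On FPKM as deposited, knockout 3 had the highest knockout value in 11 of the 14 chaperone genes, and control 3 the lowest control value in 11. Over all 34 members the numbers were 15 and 22, and such counts over all genes were not made. Median-ratio scaling divides the values of each library by a factor. It was 0.9999 for knockout 3, the lowest of the knockouts, and 0.9118 for control 3, the lowest of the 6. The low value of control 3 was most apparent for Sdf2l1, a component of the BiP complex, at 13.2, 10.9 and 8.10 FPKM in the knockouts and at 11.5, 10.4 and 2.07 FPKM in the controls. Sdf2l1 did not pass (log2 fold change 0.60 ± 0.53, limma, adjusted p = 0.449) and without control 3 its log2 fold change was -0.05. The disulfide isomerase Pdia6 likewise was at 45.3, 47.9 and 48.4 FPKM in the knockouts and at 45.5, 48.1 and 30.5 FPKM in the controls (0.21 ± 0.17, adjusted p = 0.403; 0.01 without control 3 and 0.33 without control 2). The summed level of the 14 genes was 982, 993 and 1110.2 FPKM in the knockouts, against 807, 877 and 693 FPKM in the controls. On FPKM as deposited the sums did not overlap, and control 3 was the lowest of the 6 livers. The sums were not made after median-ratio scaling, whose factors differ between the libraries.

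**Figure D2:**
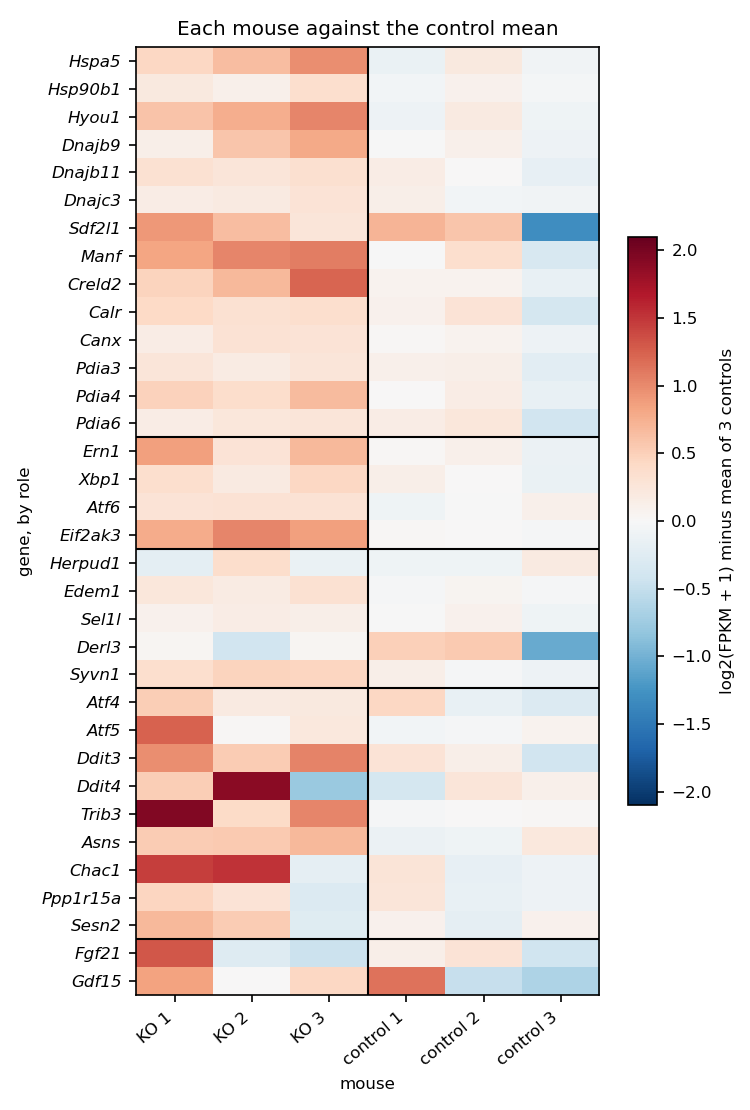
Log2(FPKM + 1) of each of the 34 genes in each liver minus the mean of the 3 controls, with knockouts left of controls and horizontal lines between the roles. Chaperones and sensors were above the control mean in nearly all knockout squares, control 3 was low for Sdf2l1 and Derl3, and the ATF4 pathway differed between the knockouts.

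Of the 9 members with an ERSE, 3 were genes that rose, among 7 such genes with a window, and 6 were among the 24 others. The log2 fold changes of the 9 ran from -0.11 to 0.79, with Creld2 (0.79), Hspa5 (0.69) and Syvn1 (0.43) above Calr (0.37), Canx (0.25), Hsp90b1 (0.23), Dnajc3 (0.21), Pdia6 (0.21) and Derl3 (-0.11). An exact ERSE in the window was therefore found in members with and without a call. Hsp90b1, whose window holds the motif in 2 places, was among the smaller differences.

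ER-associated degradation moves misfolded proteins back to the cytosol for ubiquitination. The median log2 fold change of its 5 members was 0.12, against 0.13 for all tested genes. Of these 5, 1 rose (13.9% of all tested genes did), namely Syvn1, which encodes the ubiquitin ligase HRD1. It was at 12.1, 13.2 and 13 FPKM in the knockouts, against 10.2, 9.11 and 8.52 FPKM in the controls, without overlap (log2 fold change 0.43 ± 0.08, limma, adjusted p = 0.024). Syvn1 lost its call without knockout 1, knockout 2, control 2 or control 3 (adjusted p 0.0557 to 0.0874) and after median-ratio scaling (0.0735). Its partner Sel1l, the adaptor of the ligase, was at 21, 22 and 21.3 FPKM in the knockouts, against 19.5, 20.9 and 18.3 FPKM in the controls (0.12 ± 0.07, adjusted p = 0.27). Edem1, which hands mannose-trimmed glycoproteins to this machinery, was at 27.4, 26.4 and 29.2 FPKM in the knockouts, against 22.8, 24.1 and 22.8 FPKM in the controls (0.24 ± 0.07, adjusted p = 0.0584). The values of Sel1l and Edem1 were apart between groups but did not pass, and the log2 fold change of Sel1l was -0.03 after median-ratio scaling.

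Herpud1, a membrane scaffold of the ligase complex and the member of highest mean level, was at 215, 319 and 224 FPKM in the knockouts, against 232, 231 and 282 FPKM in the controls. Knockouts 1 and 3 lay below every control and knockout 2 above, which left 0.01 ± 0.17 on the log2 scale (limma, adjusted p = 0.975; -0.15 after median-ratio scaling). Derl3, a derlin of the retrotranslocation channel, was at 1.74, 1.02 and 1.74 FPKM in the knockouts and at 2.76, 2.92 and 0.287 FPKM in the controls (-0.11 ± 0.43, adjusted p = 0.88). Control 3 was the lowest of the 6 for Derl3, where its value rested on about 9 fragments. Without controls 1 or 2 the log2 fold change of Derl3 was 0.14 and 0.17, and without control 3 it was -0.63.

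In the ATF4 pathway, 1 of 8 tested genes rose (12.5%, against 13.9% of all tested genes), and the knockout livers differed among themselves. All 8 had log2 fold changes above 0, with a median of 0.52 against 0.13 for all tested genes. Ddit3 encodes CHOP, a pro-apoptotic transcription factor downstream of PERK and ATF4. It was at 6.52, 4.58 and 6.89 FPKM in knockouts 1, 2 and 3, against 3.68, 3.17 and 1.89 FPKM in controls 1, 2 and 3, without overlap (log2 fold change 0.85 ± 0.21, limma, adjusted p = 0.0398). Ddit3 lost its call without any of the 6 mice (adjusted p 0.0553 to 0.108) and after median-ratio scaling (0.0581). It shares 68 bp of exon with Mars on the opposite strand and 105 bp with another entry annotated as Ddit3 on its own strand, so its fragments are not certain to be its own.

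Atf4 itself was at 37.6, 30.0 and 30.2 FPKM in the knockouts and at 35.5, 23.4 and 21.4 FPKM in the controls (0.30 ± 0.20, limma, adjusted p = 0.312). Control 1 lay above knockouts 2 and 3, and the log2 fold change was 0.52 without control 1 and 0.16 without control 3. ATF4 is regulated mainly through translation, which RNA levels do not show.

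Trib3, a pseudokinase that restrains ATF4 and AKT signalling, was at 20, 6.15 and 9.98 FPKM in the knockouts, against 4.32, 4.43 and 4.52 FPKM in the controls. All 3 knockouts lay above the controls, but the spread among them was wide, and the gene did not pass (1.12 ± 0.35, limma, adjusted p = 0.0712). It passed without knockout 2 (1.48, adjusted p = 0.0489), and without knockout 1 the log2 fold change was 0.71 (adjusted p = 0.0777). Atf5, an ATF4-related transcription factor with high expression in liver, was at 371, 158 and 183 FPKM in the knockouts, against 151, 154 and 165 FPKM in the controls (0.50 ± 0.30, adjusted p = 0.278), and shares 82 bp of exon with Nup62 on the opposite strand. Knockout 1 stood apart, knockout 2 lay within the control range, and without knockout 1 the log2 fold change was 0.12.

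Chac1, a glutathione-degrading enzyme, was at 4.59, 4.83 and 0.793 FPKM in the knockouts, against 1.46, 0.810 and 0.894 FPKM in the controls (0.93 ± 0.45, limma, adjusted p = 0.187). Sesn2, a leucine-binding inhibitor of mTORC1, was at 6.52, 5.75 and 2.94 FPKM in the knockouts, against 4.0, 3.13 and 3.99 FPKM in the controls (0.32 ± 0.24, adjusted p = 0.384). In both genes knockouts 1 and 2 lay above every control and knockout 3 below every control. Both passed without knockout 3, with log2 fold changes of 1.49 for Chac1 (adjusted p = 0.00502) and 0.60 for Sesn2 (adjusted p = 0.0228). Without knockouts 1 and 2 in turn they were 0.67 and 0.64 for Chac1 and 0.14 and 0.22 for Sesn2. Knockout 3 lay below every control in 4 of the 9 ATF4 pathway genes and in 0 of the 14 chaperone genes. Knockout 1 lay above every control in all 9, but also in 13 of the 14 chaperone genes and in 30 of the 34 members. These counts are on FPKM as deposited, and knockout 1 had the largest median-ratio factor of the 6 libraries (1.114, against 0.9999 for knockout 3). Such counts over all genes were not made.

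The other 2 of the 4 ATF4 pathway genes in which knockout 3 lay below every control were Ddit4 and Ppp1r15a. Ddit4, an mTORC1 inhibitor that also responds to glucocorticoids and fasting, was at 7.21, 20.4 and 2.32 FPKM in the knockouts, against 3.45, 5.87 and 5.15 FPKM in the controls (0.55 ± 0.62, limma, adjusted p = 0.564), and its log2 fold change was -0.13 without knockout 2 and 1.21 without knockout 3. Ppp1r15a, the GADD34 subunit that directs dephosphorylation of eIF2, was at 4.13, 3.58 and 2.1 FPKM in the knockouts, against 3.50, 2.39 and 2.51 FPKM in the controls (0.15 ± 0.21, adjusted p = 0.645). The ranges of both genes overlapped, and the log2 fold change of Ppp1r15a was 0.00 without knockout 1 and 0.36 without knockout 3. Asns, asparagine synthetase, had a mean below 1 FPKM and was not tested with the rest. Its level was 0.728, 0.741 and 0.904 FPKM in the knockouts, against 0.0895, 0.115 and 0.396 FPKM in the controls, the lowest of which rested on about 4 fragments. The knockouts were above the controls, and with no filter it was at 0.59 ± 0.12 on the log2 scale (limma, adjusted p = 0.0612).

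The 2 secreted stress hormones were not called by limma, and 0 of them had an unadjusted p under 0.05. Fgf21, a hepatic hormone of fasting and amino acid shortage, was at 28.3, 8.80 and 7.67 FPKM in the knockouts, against 11.9, 13.5 and 7.90 FPKM in the controls (0.19 ± 0.46, limma, adjusted p = 0.798). Knockout 1 was above every control and knockout 3 below, and the log2 fold change was -0.36 without knockout 1 and 0.52 without knockout 3. Gdf15, which acts on the hindbrain to reduce appetite, was at 47.0, 25.7 and 35.0 FPKM in the knockouts, against 57.6, 18.0 and 16.0 FPKM in the controls (0.43 ± 0.48, adjusted p = 0.56). Control 1 had the highest Gdf15 of the 6 livers, and the log2 fold change was 1.0 without it (adjusted p = 0.0645), 0.22 without knockout 1, 0.18 without control 2 and 0.11 without control 3. The Fgf21 window is the one that holds the CARE shown above.

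**Figure D3:**
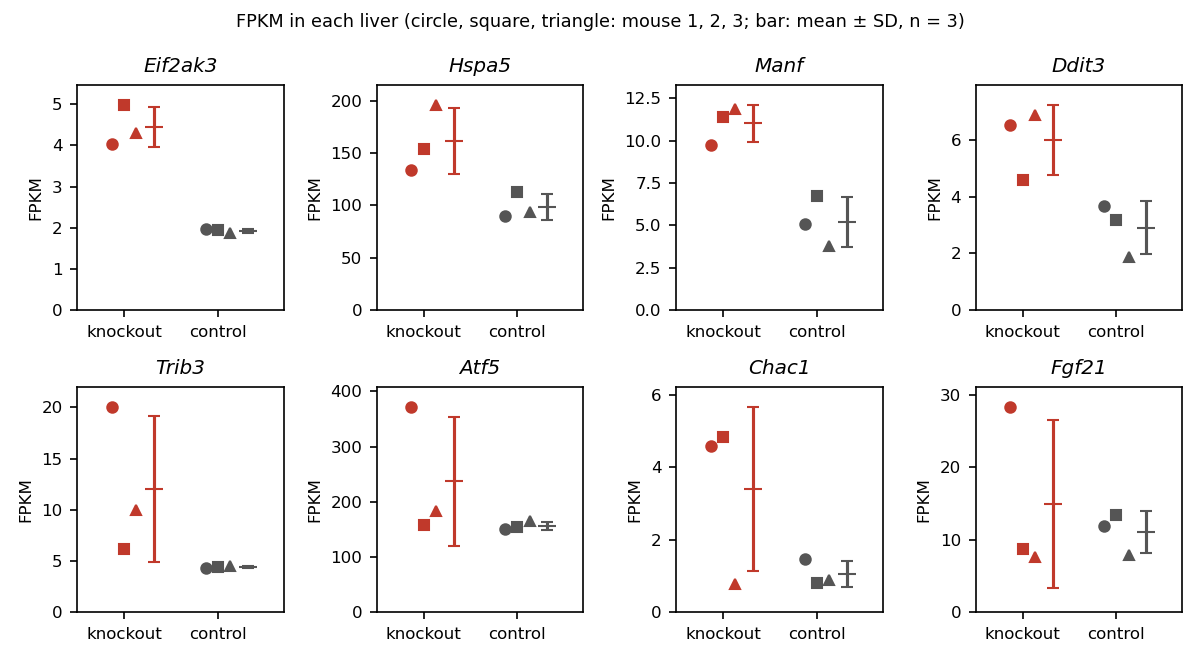
FPKM in each liver for 8 genes, knockouts left of controls, with circles, squares and triangles for mice 1, 2 and 3 of each group and bars for the mean ± SD (n = 3). Eif2ak3, Hspa5, Manf and Ddit3 were separated between groups, whereas the knockout spread of Trib3, Atf5, Chac1 and Fgf21 was wide, with knockout 1 highest for Trib3, Atf5 and Fgf21.

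Other genes of the pathway were taken from 6 lists of 121 genes, of which 110 were tested. Limma called 19 higher (17.3%, against 13.9% of all tested genes) and 0 lower, and 42 of 110 had an unadjusted p under 0.05, against 35.3% of all tested genes. Their median log2 fold change was 0.16, against 0.13 for all tested genes, so as a whole they lay close to the transcriptome. After median-ratio scaling, 4 were higher (Ubxn4, Map3k5, Impact and Nupr1), or 3.64% against 7.64% of all tested genes. Another 6 of the 110 were lower (Txndc5, Prkcsh, Cnpy2, Spcs1, Rpn1 and Os9), against 736 of all 10996 tested genes. Without knockouts 1, 2 or 3, 1, 1 and 20 of the 110 genes were called higher, against 428, 258 and 1987 of all 10996. Without controls 1, 2 or 3 the numbers were 3, 2 and 1, against 539, 266 and 223 of all 10996.

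Of 22 tested ER folding factors outside the members, 4 rose (18.2%, against 13.9% of all tested genes). They were the PDI oxidases Ero1l (0.37 ± 0.07) and Ero1lb (0.41 ± 0.09), the Hsp70-like Hspa13 (0.35 ± 0.08) and the glycoprotein folding sensor Uggt1 (0.34 ± 0.07). The median of this list was 0.02. Ero1lb was at 8.32, 8.88 and 8.67 FPKM in the knockouts, against 6.94, 6.43 and 5.49 FPKM in the controls. Of 22 translocation and glycosylation genes, 4 rose (18.2%, against the same 13.9%), with a list median of 0.18. These were the translocon pore Sec61a1 (0.36 ± 0.07), the translocon-associated Ssr3 (0.40 ± 0.09) and the oligosaccharyltransferase subunits Rpn2 (0.28 ± 0.07) and Stt3a (0.33 ± 0.08). Ssr3 was at 55.8, 64.4 and 58.8 FPKM in the knockouts, against 48.0, 45.3 and 42.0 FPKM in the controls. In all 8 genes the groups did not overlap, and none of the 8 kept its call after median-ratio scaling.

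Of 24 other degradation factors, 6 rose (25.0%, against 13.9% of all tested genes), with a list median of 0.12. The largest was Ubxn4 (0.47 ± 0.07, limma, adjusted p = 0.0122), which recruits the p97 ATPase to the ER membrane, at 31.4, 30.5 and 32.2 FPKM in the knockouts, against 22.6, 23.1 and 21.3 FPKM in the controls. Ubxn4 was called without each mouse. Derl1, a channel protein (0.34 ± 0.08), the mannosidase Edem3 (0.33 ± 0.08) and the p97 cofactor Nploc4 (0.31 ± 0.07) were also among the 6. Of 13 other response regulators, 1 rose (7.69%, against the same 13.9%), with a list median of 0.27. It was Map3k5, the kinase ASK1 that acts downstream of IRE1 (0.69 ± 0.12, limma, adjusted p = 0.0186). Its level was 8.32, 9.91 and 7.95 FPKM in the knockouts, against 5.02, 5.79 and 4.35 FPKM in the controls.

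On the eIF2 side, 2 of 16 tested genes rose (12.5%, against 13.9% of all tested genes), with a list median of 0.14. They were Impact, an inhibitor of the amino acid sensing kinase GCN2 (0.51 ± 0.11, limma, adjusted p = 0.0283), and Eif2s1, the phosphorylated subunit of eIF2 itself (0.32 ± 0.08, adjusted p = 0.0456). Impact was at 9.46, 8.68 and 8.11 FPKM in the knockouts, against 6.2, 6.42 and 4.97 FPKM in the controls. Of 23 other ATF4 targets, 13 were tested and 2 rose (15.4%, against the same 13.9%), with a list median of 0.21. These were the ATF4 partner Cebpg (0.41 ± 0.10, limma, adjusted p = 0.0409) and the stress-induced coregulator Nupr1 (0.93 ± 0.23, adjusted p = 0.041). Nupr1 was at 2.60, 1.22 and 1.11 FPKM in the knockouts, against 0.146, 0.553 and 0.380 FPKM in the controls. It reached the filter only through the knockouts, and without it 1 of the list was called. Its lowest value rested on about 6 fragments. The 10 untested targets had means below 1 FPKM. In 7 of them (Slc7a11, Psat1, Mthfd2, Slc7a1, Aldh18a1, Pck2 and Slc7a5, which serve amino acid transport, serine and proline synthesis and mitochondrial metabolism) all knockouts lay above all controls, against 14.0% of the 15133 genes below the filter with a value above 0, and in 0 of the 10 below. The 15133 genes were not matched in level to these targets, and among the tested genes the share was 33.9%. The 7 targets were named after their values were seen. Psat1, a serine synthesis enzyme, was at 1.37, 0.983 and 0.857 FPKM in the knockouts, against 0.129, 0.119 and 0.165 FPKM in the controls, and with no filter it was the single one of the 10 to pass (0.86 ± 0.11, adjusted p = 0.031; about 8 fragments at the lowest), while the other 6 had adjusted p of 0.0684 to 0.182. Of the 17 pathway genes named by rule, 16 lost their calls without at least 1 of the 6 mice (adjusted p 0.0501 to 0.146), and 13 after median-ratio scaling (0.0817 to 0.306).

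**Figure D4:**
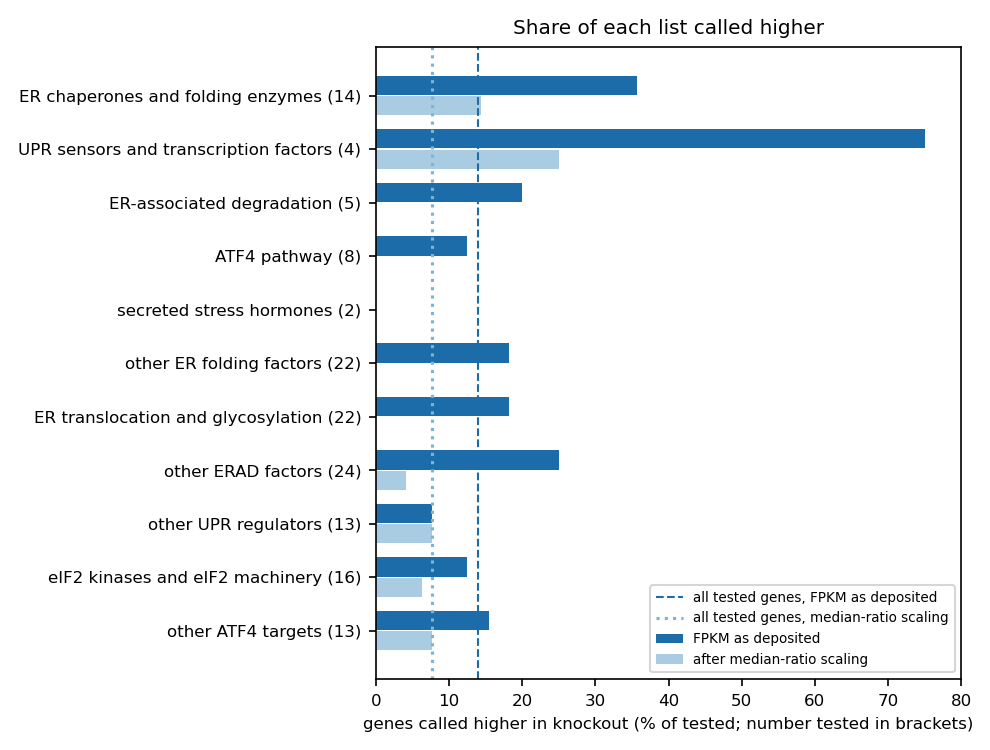
Share of tested genes called higher in the knockouts (limma, adjusted p under 0.05) for the 5 roles of the members and the 6 other lists, on deposited FPKM and after median-ratio scaling, with the number tested in brackets. Lines mark 13.9% and 7.64% of all tested genes. Sensors (3 of 4) and chaperones (5 of 14) had the largest shares on deposited FPKM, and after median-ratio scaling 1 and 2 of them were called.

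Markers of several cell types moved with the genotype. The summed level of 8 hepatocyte markers was 33453 to 37299 FPKM in the knockouts, against 45398 to 53576 FPKM in the controls. Most of the sum was Alb, at 21103 to 24029 FPKM in the knockouts and 30151 to 37369 FPKM in the controls. Among the 8, Alb and Ttr fell, Hnf4a rose, and 5 were not called (Apoa1, Cps1, Tat, Cyp2e1 and Asgr1). Of 9 macrophage markers, 6 rose and 1 fell (Trem2 and Gpnmb, among the 6, reached the filter only through the knockouts), with sums of 552, 550.1 and 293 FPKM in the knockouts, against 224, 254 and 165 FPKM in the controls. Of 7 stellate cell and fibroblast markers 6 rose (Col1a1 reached the filter only through the knockouts), with sums of 77.9 to 108 FPKM in the knockouts and 38.0 to 45.3 FPKM in the controls, and of 5 endothelial markers 3 rose, with sums of 50.9 to 65.3 and 43.1 to 46.5 FPKM. Knockout 3 had the lowest macrophage sum of the knockouts.

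Plasma cells have a large ER, and the 10 plasma and B cell markers summed to 10.0, 289 and 39.9 FPKM in knockouts 1, 2 and 3, against 30.4, 57.9 and 24.8 FPKM in controls 1, 2 and 3, with 0 of 3 tested markers called by limma, or at an unadjusted p under 0.05. The high sum of knockout 2 came mostly from Igkc and Ighm, at 151 and 121 FPKM there. Of the biliary markers Spp1, which other cells also express, was the single one tested and rose, with sums of 34.1 to 66.6 FPKM in the knockouts and 13.4 to 16.1 FPKM in the controls. The adipocyte markers summed to 6.81 to 14.1 FPKM in the knockouts and 1.61 to 1.89 FPKM in the controls. Of them Fabp4 rose, Cfd reached the filter only through the knockouts (mean 6.57 FPKM, against 0.16 FPKM in the controls), and Adipoq was at 0 to 0.0895 FPKM in the knockouts and listed at 0 in the controls. Neutrophil sums were 2.2 to 7.36 FPKM in the knockouts and 1.13 to 2.29 FPKM in the controls, where S100a8, at means of 1.57 and 0.48 FPKM, reached the filter only through the knockouts and Ly6g was listed at 0 in all 6. The T and NK cell markers summed to 1.58 to 2.15 FPKM in the knockouts and 0.841 to 1.02 FPKM in the controls. All of them were below the filter. The pancreatic acinar markers summed to at most 0.0359 FPKM in the knockouts and 0.403 FPKM in the controls. Of these, Prss2 was listed at 0 in all 6. The part of these cell types in the values of the stress response genes was not tested.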

How the data were processed

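Liver RNA of 6 mice was sequenced as poly(A)-selected libraries, per the labels' protocols. The values deposited by the authors are FPKM of 28450 genes. Per the submitters' processing notes, the build was GRCm38 and the tools were StringTie 1.3.0, HISAT2 2.0.4 and Bowtie2 2.2.6, with no role stated. Each column matched 1 sample title, which gave group and replicate number.

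FPKM were transformed to log2(FPKM + 1), and limma 3.58.1 (R 4.3.3) was run on the 10996 genes whose mean reached 1 FPKM (eBayes with trend, Benjamini-Hochberg adjustment over all tested genes, threshold 0.05). P-values measure the spread between 3 animals in each group; an exact permutation test of 3 against 3 cannot go below 0.1. The procedure was tested on simulated data. The members, lists and tests were chosen with earlier results of these data known. Named genes were all members, and of each other list up to 4 called genes of largest absolute log2 fold change.

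Exon lengths from GENCODE M21 gave the fragment total at which low FPKM values became whole numbers; among values below 20 fragments, 97.99% to 98.19% came within 0.1 of one, and the fragments summed to 102.87% to 103.38% of these totals, which are estimates. They served for depth and for the voom alternative. Fragment numbers cover counting error only. Promoters are from RefSeq (GRCm38.p6). Alternatives were other pseudocounts, filters, scalings and variance models, a replicate block, voom, and leaving out each mouse. Tables and figures were made with Python 3.11.15 (matplotlib 3.10.9, numpy 2.4.6, pandas 2.3.3).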

Additional observations from a re-analysis of the deposited data

How the results depend on the processing

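Acsm3 was lower and Eif2ak3 higher past the threshold in every alternative in which each was tested. Members called higher numbered 10, against 2 with no filter, 3 after median-ratio scaling, 18 when rescaled to a common sum, 5 after quantile normalization and 1 to 8 without 1 mouse; none was called lower in any of these. All genes called higher or lower numbered 1532 and 287, against 544 and 106 with no filter, 848 higher at a mean of at least 5 FPKM, 840 and 736 after median-ratio scaling, 2451 higher when rescaled to a common sum, 752 and 603 after quantile normalization, 2742 and 537 with array weights, and 223 to 1987 and 55 to 284 without 1 mouse. Other pathway genes called higher numbered 19, against 5 with no filter, 4 (and 6 lower) after median-ratio scaling, 33 when rescaled to a common sum, 6 (and 1 lower) after quantile normalization, 34 (and 2 lower) with array weights and 1 to 20 without 1 mouse. With 1 mouse fewer the fits have less power, and the weight of single mice was not separated from that. Rescaling to a common sum kept the genes tested, but it changed both the relative scale of the libraries (FPKM sums of 364308 to 376083 in the knockouts and 385827 to 395208 in the controls) and the values against the pseudocount of 1, and these were not separated.

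With the replicate number as a block, 6 of 33 members and 22 of 110 other pathway genes were higher and 1 pathway gene lower. Of all 10996 tested genes, 1672 were then higher and 346 lower. Deviations of same-numbered mice correlated at 0.111, 0.092 and 0.187; every mouse correlated best with its own number, a hint from the data and not from the design, and the labels do not say what a number marks.

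Signs changed, with no call, for Herpud1 after median-ratio scaling (-0.15), without knockout 2 (-0.17) and without controls 1 or 2 (-0.04 each), for Sel1l after median-ratio scaling (-0.03), for Derl3 with a pseudocount of 0.1 (0.06), after rescaling to a common sum (0.01), with voom (0.11), without knockout 2 (0.04) and without controls 1 and 2 (0.14 and 0.17; -0.63 to 0.17 over single mice left out), for Ppp1r15a after quantile normalization (-0.04), for Sdf2l1 without control 3 (-0.05; -0.05 to 0.96 over single mice left out), for Ddit4 without knockout 2 (-0.13; -0.13 to 1.21 likewise), and for Fgf21 without knockout 1 (-0.36; -0.36 to 0.52 likewise) and control 3 (-0.01). Beyond the effect of fewer mice or genes, the cause was not tested. Depth limits Derl3, Asns, Chac1 and Nupr1, whose lowest values rested on about 9, 4, 21 and 6 fragments.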
